A study of Homo sapiens with 12 samples.

Results

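The BCL2 family genes described here are 10 genes of the mitochondrial pathway of apoptosis, BCL2, BCL2L1, MCL1, BCL2L11, BAX, BAK1, BBC3, PMAIP1, BID and BAD. They were chosen by name, and every H2A.Z and acetylated H2A.Z (H2A.Zac) region listed over the gene body and 10 kb to each side was taken, with genes placed as in GENCODE release 44 on hg38. They are 10 of 20046 protein-coding genes, and their loci hold 130 of the 158028 regions in the deposited lists, 45 of H2A.Z and 85 of H2A.Zac. These data come from ChIP-seq of K562, a human chronic myeloid leukemia line, with 12 libraries (2 biological replicates each of input, H2A.Z and H2A.Zac in either line). In both lines the endogenous EP400 carries the dTAG degron and was degraded with 500 nM dTAGV-1 for 24 h, and the cells lived on EP400 expressed from the AAVS1 locus. One line carried WT EP400 and the other Delta-TRRAP EP400 (ΔTRRAP), which lacks the SANT and HD domains that hold TRRAP in the TIP60 complex, so the comparison addresses what TRRAP does for H2A.Z within that complex. Each line was 1 clone, so the mutation and any other difference between the clones cannot be told apart.

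The lists were made by the authors from merged replicates and carry 1 value per region, a log10 likelihood ratio between the lines, called the ratio from here on. Regions higher in WT (lost in ΔTRRAP) or higher in ΔTRRAP (gained) have a ratio above 3, and unchanged regions a ratio below 3. Its size depends on depth and width as well as on how far the lines differ, and it must not be read as a fold. No counts or values per replicate come with the regions, and the depth is unknown here. From these lists no spread or test between the lines can be given for any gene. Regions of different classes can also overlap, because stretches of one class are joined across short gaps. Over the genome 49.3% of the H2A.Zac regions and 27.3% of the H2A.Z regions overlap a region of the same mark in another class.

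BCL2 family proteins decide whether the outer membrane of mitochondria is opened during apoptosis. BCL2, BCL2L1 (BCL-XL) and MCL1 hold it closed, BAX and BAK1 form the pores, and the BH3-only proteins BCL2L11 (BIM), BBC3 (PUMA), PMAIP1 (NOXA), BID and BAD trigger the pore formers or block the survival proteins. H2A.Z is a histone variant found in the nucleosomes that flank active promoters and at enhancers, where the TIP60 complex can exchange it into chromatin and acetylate it. BBC3, PMAIP1 and BAX are textbook targets of p53, a factor that K562 cells are known to lack.

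Over the 10 loci, 22 H2A.Zac regions were lost, 25 were gained and 38 were unchanged, while 10 H2A.Z regions were lost, 5 were gained and 30 were unchanged. Changed regions were thus 55.3% of the H2A.Zac and 33.3% of the H2A.Z regions, against 52.1% and 34.0% over the genome. Gained regions made up 53.2% of the changed H2A.Zac regions (Wilson 95% confidence interval, 39.2 to 66.7%), and the genome-wide share of 50.4% lies inside this interval. Without the regions within 1 kb of another gene's start, 13 of 31 were gained (41.9%), so these counts do not set which direction prevails. For H2A.Z the gained share was 33.3% (15.2 to 58.3%), beside 41.6% over the genome. The intervals cover counting error only, and regions of 1 gene are not independent of each other. With 2 kb to each side in place of 10 kb, gains were 62.5% of 8 changed H2A.Z regions, and with 25 kb they were 33.3% of 24.

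**Figure D1:**
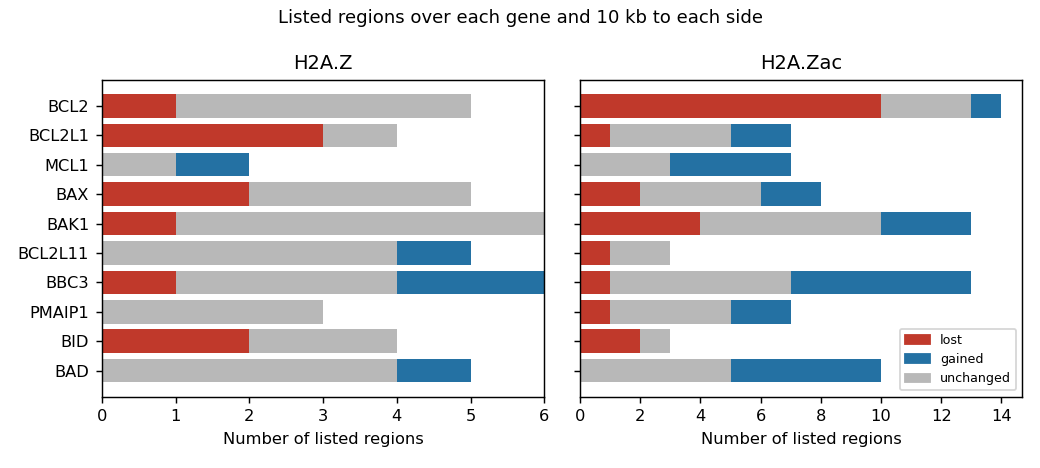
Number of listed regions over each gene and 10 kb to each side, for H2A.Z (left) and H2A.Zac (right), stacked by class. BCL2 holds 10 of the 22 lost H2A.Zac regions, and BBC3 and BAD together hold 11 of the 25 gained ones.

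MCL1 and BAD held gained but no lost H2A.Zac regions (4 and 5), BCL2L11 and BID held lost but no gained ones (1 and 2), and the other 6 genes held both. Of the 16785 protein-coding loci with an H2A.Zac region, drawn in the same way, 31.7% held gained but no lost, 20.3% lost but no gained and 39.2% both, and the lengths of the loci differ. The changed H2A.Zac regions had ratios from 3.72 to 18.9 and the changed H2A.Z regions from 3.62 to 14.5. The medians of the whole lists are 8.27 for lost and 6.87 for gained H2A.Zac regions, and 5.95 and 5.48 for H2A.Z. By role, 7 of 18 changed H2A.Zac regions were gained at the survival genes (38.9%, Wilson interval 20.3 to 61.4%), 5 of 11 at the pore formers (45.5%, 21.3 to 72%) and 13 of 18 at the BH3-only genes (72.2%, 49.1 to 87.5%). These intervals overlap, and the difference was not tested. It rests on few genes, since without BCL2 the survival genes held 6 gained and 1 lost region, and without BBC3 and BAD the BH3-only genes held 2 gained and 4 lost.

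At the promoters, all 10 genes had an unchanged H2A.Zac region within 1 kb of the TSS of their canonical transcript, and all 10 also had a changed one in that window. A gained H2A.Zac region was present at 7 genes (MCL1, BCL2L1, BAX, BAK1, BBC3, PMAIP1 and BAD) and a lost one at 4 (BCL2, BAK1, BCL2L11 and BID). Among all protein-coding genes the shares are 36.6% for gained and 16.6% for lost H2A.Zac regions, and 48.8% for either. Many genes have no region there at all. All 10 family genes had an H2A.Z and an H2A.Zac region in the window, against 62.2 and 63.9% of all genes, and unchanged H2A.Zac stood at 57.8% of all genes. Among the 12819 genes with an H2A.Zac region there, the shares are 57.3% for gained, 26.0% for lost, 76.4% for either and 90.5% for unchanged. H2A.Z was listed as unchanged in the window at 9 genes, was gained at MCL1 and was lost at BID. The shares for these classes are 59.6, 13.9 and 6.53% of all genes, and 95.9, 22.3 and 10.5% of those with an H2A.Z region. At 8 of the 10 genes a changed H2A.Zac region but no changed H2A.Z region was listed in the window, a combination found at 32.0% of all protein-coding genes and at 50.1% of those with an H2A.Zac region there. The count depends on the window, since within 2 kb of the TSS changed H2A.Z was listed at BCL2, BCL2L1 and BCL2L11 too, which left 5 genes (32.7% of all genes). In 6 of the 8 genes the change included a gain, as it did in 4936 of the 6417 protein-coding genes with this combination. Those 4936 are 24.6% of all genes and 38.5% of those with an H2A.Zac region. BCL2L1, BAX, BBC3, PMAIP1 and BAD had one and the same set of classes, unchanged H2A.Z with gained and unchanged H2A.Zac, which was shared by 3857 of all genes (19.2%). BCL2 and BCL2L11 had unchanged H2A.Z with lost and unchanged H2A.Zac, as did 1082 genes (5.40%). The sets at BAK1, BID and MCL1 were those of 452, 509 and 90 genes (2.25, 2.54 and 0.449%). Counted as regions, 7 of the 12 changed H2A.Zac regions in the windows were gained (58.3%, Wilson interval 32 to 80.7%), and 1 of the 2 changed H2A.Z regions. Over the genome, among changed regions within 1 kb of a gene start, 63.9% of H2A.Zac and 59.2% of H2A.Z regions were gained. Outside the windows 18 H2A.Zac regions were gained and 17 lost, and 4 H2A.Z regions were gained and 9 lost, beside gained shares of 44.6 and 35.4% away from gene starts over the genome. Some of those regions lie within 1 kb of the starts of other genes, neighboring or inside the family gene, among them 9 of the gained H2A.Zac regions.

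**Figure D2:**
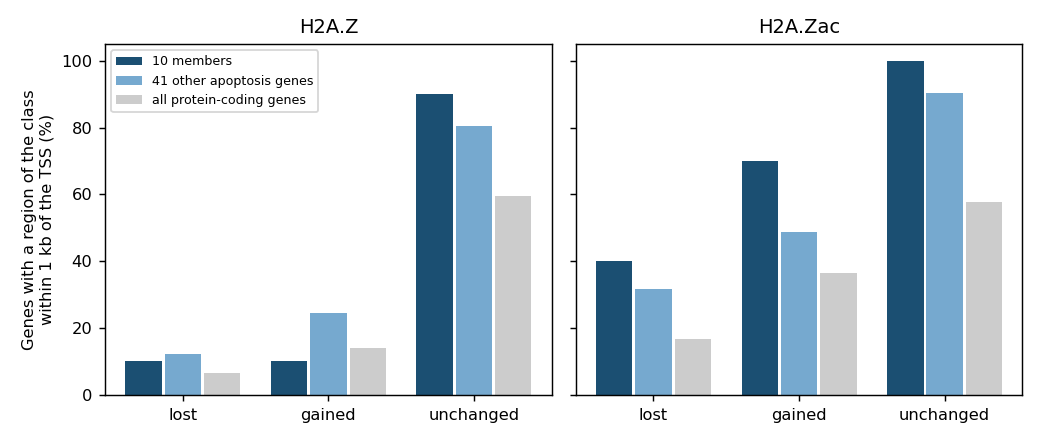
Percentage of genes with a lost, gained or unchanged region within 1 kb of the canonical TSS, for H2A.Z (left) and H2A.Zac (right), in the 10 BCL2 family genes, 41 other apoptosis genes and all protein-coding genes. A gene can count in more than 1 class. Unchanged H2A.Zac reaches 100% in the 10 genes, against 57.8% of all protein-coding genes and 90.5% of those with an H2A.Zac region in the window.

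**Figure D3:**
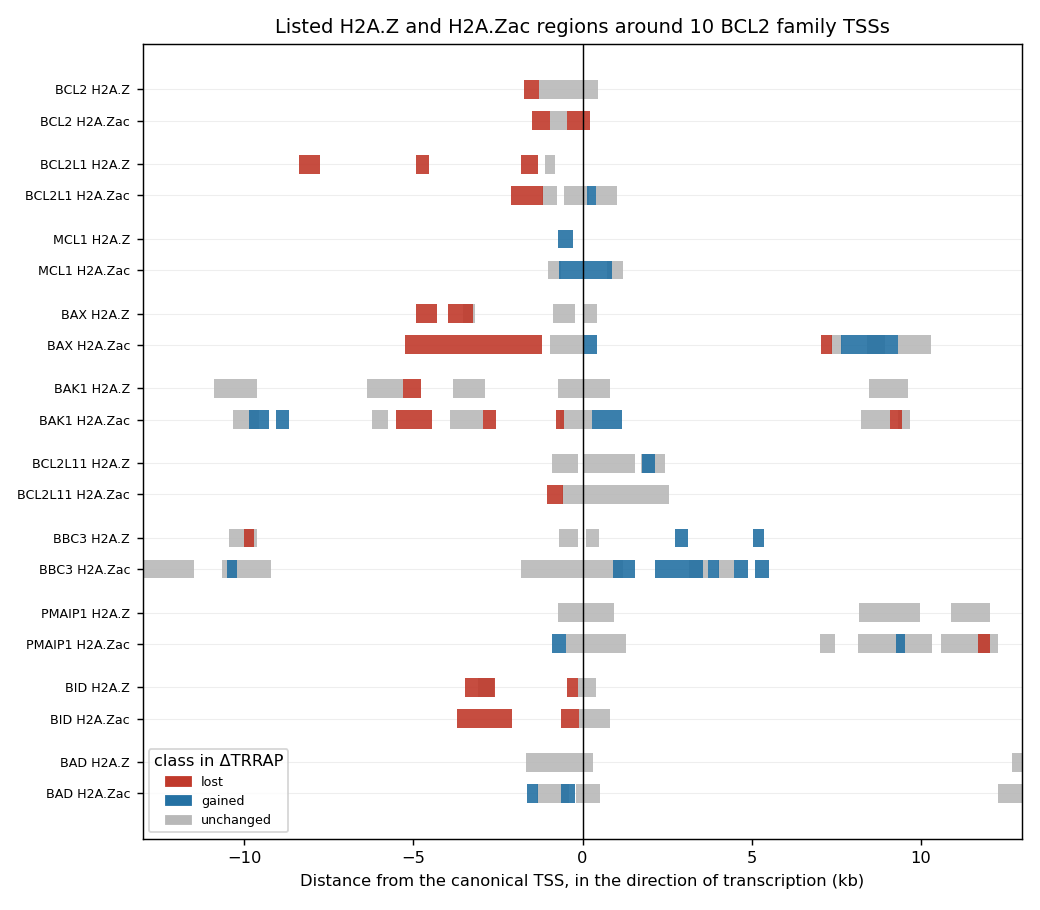
Regions of each gene and mark by their distance from the canonical TSS in kb, with upstream to the left, and changed regions drawn over unchanged ones. Regions farther than 13 kb from the TSS are outside the plot. Lost H2A.Z regions all lie to the left of the TSS line, and the only gained H2A.Z region on that side is the one at MCL1.

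MCL1 (ENSG00000143384), whose short-lived product many leukemia cells need to survive, lies on the minus strand of chr1:150560895-150579738. It was the only one of the 10 genes with both marks gained at its promoter. The gained H2A.Zac region spans the TSS from 0.68 kb upstream to 0.87 kb downstream, is 1553 bp wide and has a ratio of 13, and 83.3% of all gained H2A.Zac regions have this ratio or a lower one. The gained H2A.Z region, 448 bp wide with a ratio of 8.35, lies from 0.73 to 0.28 kb upstream, and no other H2A.Z region was listed in the window. An unnamed gene (ENSG00000290074) starts within 1 kb of both regions. Gained regions of both marks stand at 11.0% of all protein-coding TSSs. The other 3 gained H2A.Zac regions of the locus lie beyond the end of the canonical transcript, at or near the starts of ADAMTSL4, MIR4257 and ADAMTSL4-AS1. The widest of them, 2820 bp with a ratio of 17.5, holds an unchanged H2A.Z region.

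BCL2 (ENSG00000171791), the first survival gene of the family to be found, covers chr18:63123346-63320128 on the minus strand and has 3 exons in its canonical transcript. It moved the other way. A lost H2A.Zac region of 669 bp spans the TSS and the first part of exon 1 with a ratio of 7.20, and a second, 547 bp wide with a ratio of 6.04, lies 0.95 to 1.5 kb upstream. Between them sits an unchanged H2A.Zac region. An unchanged H2A.Z region of 1757 bp (ratio 0.40) underlies most of this stretch, and a lost H2A.Z region (454 bp, ratio 7.13) follows at its upstream edge, 1.29 to 1.74 kb from the TSS. Both marks were lost together over 210 bp at this edge.

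The larger part of the change at BCL2 lay far inside the gene. Its second intron holds 11 H2A.Zac regions, of which 8 were lost, 1 was gained and 2 were unchanged. The lost regions stand between 82.5 and 122.3 kb downstream of the TSS, cover 7.62 kb in all and have ratios from 5.61 to 17.7. The strongest is 1956 bp wide and lies 105.3 to 107.3 kb from the TSS. The gained region lies nearer to the promoter, at 65.2 to 66.7 kb, is 1548 bp wide and has a ratio of 16.9. Only 1 of these 9 changed regions had at least 25% of its length on an H2A.Z region, and that H2A.Z region was unchanged. A further pair of marks, H2A.Z and H2A.Zac together, was unchanged at 181 kb. An annotated gene with no name of its own (ENSG00000283125) starts within 1 kb of 2 of the lost regions. Counted by gene, 10 of the 11 changed H2A.Zac regions of BCL2 were lost, while in the rest of its 5-Mb window 13 of 21 were gained.

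**Figure D4:**
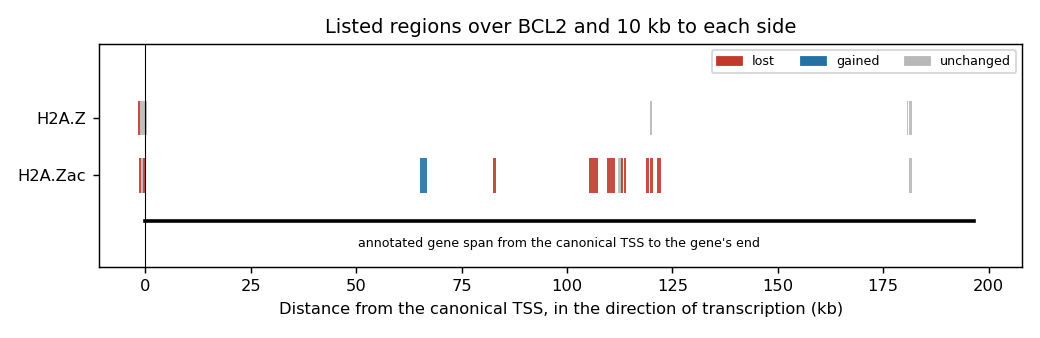
H2A.Z and H2A.Zac regions over BCL2 and 10 kb to each side, by distance from the canonical TSS in kb in the direction of transcription. The 8 lost H2A.Zac regions of the second intron lie between 82.5 and 122.3 kb, where a single H2A.Z region was listed.

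BCL2L1 (ENSG00000171552), whose product BCL-XL protects maturing red cells, lies on the minus strand of chr20:31664452-31723989. At its canonical TSS there was no more than a narrow change, a gained H2A.Zac region of 264 bp with a ratio of 4.67 between unchanged ones. Farther upstream both marks were lost. An H2A.Zac region of 925 bp with a ratio of 16.3 begins 58 bp before the outermost annotated start of the gene, which is 1.12 kb upstream of the canonical TSS, and holds a lost H2A.Z region of 490 bp (ratio 6.36). The middle of the segment lost in both marks is repeated sequence, found up to 114 times in the genome in pieces of 40 bases, so reads there can be hard to place, and the part of read placement in this loss was not tested. Beyond it, 2 more H2A.Z regions were lost, at 4.54 to 4.92 kb and 7.76 to 8.38 kb upstream, with ratios of 14.5 and 6.53, and neither had an H2A.Zac region on it. Inside the gene, 47.2 kb from the TSS in intron 2, an H2A.Zac region was gained with a ratio of 8.14.

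Where regions of both marks changed in the same direction, the sequence under them can be compared. The stretches shown are 160 bases from the middle of the exon-free part of the segment nearest to the TSS that changed in both marks, so where an exon reaches into a segment the stretch lies off its center. Both marks changed in the same direction over shared bases at 8 genes, lost at BCL2, BCL2L1, BID, BAX and BAK1 and gained at MCL1, BBC3 and BAD. Among the protein-coding loci with an H2A.Zac region the share is 44.7%, with 26.5% for lost and 23.7% for gained. Stretches of 4 of them are shown, BCL2, BID, BAX and BAD. BCL2 and BID have a loss within 2 kb of the TSS, and the loss of BAX lies farther upstream. At BAD the marks were gained over the end of the last exon and past it, and the stretch lies past it. The stretches are hg38 bases in the direction of each gene, and capitals mark matches to the motifs named further down.
BCL2, lost, chr18:63321084-63321243, minus strand: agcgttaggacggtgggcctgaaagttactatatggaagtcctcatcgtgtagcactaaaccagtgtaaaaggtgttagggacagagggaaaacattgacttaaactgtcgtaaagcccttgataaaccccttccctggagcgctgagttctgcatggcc
BID, lost, chr22:17774772-17774931, minus strand: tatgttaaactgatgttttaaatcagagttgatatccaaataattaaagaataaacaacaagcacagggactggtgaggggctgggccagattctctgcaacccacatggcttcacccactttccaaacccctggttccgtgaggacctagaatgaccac
BAX, lost, chr19:48951187-48951346, plus strand: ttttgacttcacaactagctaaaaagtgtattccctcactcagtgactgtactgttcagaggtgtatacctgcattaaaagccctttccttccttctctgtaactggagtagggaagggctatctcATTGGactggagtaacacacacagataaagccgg
BAD, gained, chr11:64269638-64269797, minus strand: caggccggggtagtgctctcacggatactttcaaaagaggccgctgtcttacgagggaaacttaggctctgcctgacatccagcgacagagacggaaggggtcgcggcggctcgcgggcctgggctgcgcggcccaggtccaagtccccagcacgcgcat

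The stretches differed in composition. The lost stretches of BID and BAX had 44.4 and 43.8% G and C and 1 CpG each, that of BCL2 had 48.1% and 5, and the gained stretch of BAD had 65.0% and 15. Of the lost stretches not shown, that of BAK1 had 44.4% and 1 CpG and that of BCL2L1 had 56.9% and 10. For scale, the central 160 bases of whole regions, exons included, were taken over the genome. Their median G and C content was 51.3% for all lost and 48.1% for all gained H2A.Z regions. No stretch was taken from MCL1, for which no RefSeq promoter entry was available, or from BBC3. BAD is thus the only gain here, and gains cannot be compared with losses. Each stretch shown was divided into 4 pieces of 40 bases, and every piece occurred once in the genome.

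BAX (ENSG00000087088), a pore former that moves to mitochondria on activation, lies on the plus strand of chr19:48954815-48961798. Its TSS was covered by unchanged H2A.Zac, and a gained H2A.Zac region of 411 bp with a ratio of 5.93 begins 14 bp downstream of the TSS, over exon 1 and intron 1, on unchanged H2A.Z. The widest changed region of all 10 loci lies upstream. It is a lost H2A.Zac region of 4054 bp, 1.19 to 5.24 kb before the TSS, with a ratio of 18.4, and it holds 2 lost H2A.Z regions with ratios of 9.90 and 6.96 and an unchanged one. Downstream of the gene an H2A.Zac region of 1670 bp was gained (ratio 7.54) and one of 327 bp was lost (ratio 4.68), and unchanged H2A.Zac was listed near the start of FTL, the gene of ferritin light chain.

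BAK1 (ENSG00000030110), the pore former that resides in mitochondria, lies on the minus strand of chr6:33572547-33580293 in the densest of the 10 loci, with 6.85 regions per 10 kb against 0.88 at BCL2. It was the only one of the 10 genes with both directions in the promoter window, which occurs at 4.42% of protein-coding genes. A gained H2A.Zac region of 866 bp (ratio 9.44) lies in intron 1, from 0.29 to 1.16 kb downstream of the TSS, and a lost one of 256 bp (ratio 4.18) lies 0.54 to 0.80 kb upstream, with unchanged H2A.Z of 1556 bp over the TSS. The loss is the narrowest of the changed H2A.Zac regions in the 10 loci, and 6.68% of all lost H2A.Zac regions have its ratio or a lower one. Narrow H2A.Zac regions were also lost at the neighboring GGNBP1, 2.57 to 2.93 kb upstream (ratio 4.96), and downstream of BAK1 (ratio 4.85). Farther upstream, 4.45 to 5.52 kb from the TSS, an H2A.Zac region of 1071 bp was lost (ratio 5.79) together with an H2A.Z region of 540 bp (ratio 6.99), and beyond it 2 H2A.Zac regions were gained with ratios of 4.70 and 5.91.

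BBC3 (ENSG00000105327), which encodes PUMA, lies on the minus strand of chr19:47220822-47232766. Unchanged H2A.Zac covers 3016 bp around its canonical TSS. Inside the gene, 5 H2A.Zac regions were gained between 0.91 and 5.51 kb from the TSS, from intron 1 to intron 3, with ratios from 5.02 to 9.55. H2A.Z was gained within the same stretch at 2 places, with ratios of 5.03 over exon 2 and 3.78 in intron 3. Of these 5 regions, 4 lie within 1 kb of MIR3190 and MIR3191, a pair of miRNA genes inside BBC3, so that a change there cannot be assigned to one of the 3 genes. The outer parts of the locus held a lost H2A.Zac region (ratio 8.30) 20.3 kb downstream of the TSS, a lost H2A.Z region near the limit (ratio 3.70) about 10 kb upstream, and a gained H2A.Zac region next to it with a ratio of 3.72.

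PMAIP1 (ENSG00000141682), which encodes NOXA, an antagonist of MCL1, lies on the plus strand of chr18:59899996-59904305 and was the only one of the 10 genes without a changed H2A.Z region. All 3 of its H2A.Z regions were unchanged. H2A.Zac was gained over 439 bp from 0.92 to 0.48 kb upstream of the TSS, with a ratio of 5.82, next to 1777 bp of unchanged H2A.Zac over the TSS. Downstream of the gene, narrow H2A.Zac regions were gained (270 bp, ratio 4.35) and lost (362 bp, ratio 3.97) within wider unchanged ones.

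BCL2L11 (ENSG00000153094), which encodes BIM, a BH3-only protein that binds all survival proteins, lies on the plus strand of chr2:111119378-111168444. Its promoter was covered by unchanged H2A.Zac over 3166 bp and by 2 unchanged H2A.Z regions. A lost H2A.Zac region of 469 bp with a ratio of 5.02 lies 0.59 to 1.06 kb upstream, with 66.7% of its length on unchanged H2A.Z, and a gained H2A.Z region of 375 bp with a ratio of 3.62 lies in intron 1, inside an unchanged H2A.Z region. Both ratios are low in their lists, since 17.1% of the lost H2A.Zac and 4.86% of the gained H2A.Z regions are at or below them. A second site, 27.3 to 28.6 kb into the gene, was unchanged in both marks.

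BID (ENSG00000015475), which caspase-8 cleaves to link death receptors to mitochondria, lies on the minus strand of chr22:17734138-17774770 and was the counterpart of MCL1, with both marks lost at the promoter. The loss began close to the start. H2A.Zac was unchanged over the TSS and up to 0.10 kb upstream, and lost from there to 0.64 kb upstream (538 bp, ratio 16.5). H2A.Z followed with an unchanged region over the TSS and a lost one from 0.14 to 0.46 kb upstream (326 bp, ratio 6.71). A second pair was lost 2.08 to 3.70 kb upstream, with ratios of 18.9 for H2A.Zac, the highest of all 10 loci, and 4.97 for H2A.Z. This pair lies within 1 kb of the start of LINC00528, a long noncoding RNA gene, and part of it holds an H2A.Z region listed as unchanged. Lost regions of both marks stand at 5.27% of protein-coding TSSs.

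BAD (ENSG00000002330), a BH3-only protein held inactive by phosphorylation in the presence of growth factors, lies on the minus strand of chr11:64269830-64284704. Its start lies next to the canonical start of GPR137, which is transcribed in the other direction. One unchanged H2A.Z region of 1977 bp with a ratio of 0.20 lies over the start of BAD and within 1 kb of that of GPR137, and within it H2A.Zac was gained over 443 bp (ratio 4.20) and over 326 bp on the side of GPR137 (ratio 7.54), with unchanged stretches between. The other changes lay at the end of the gene. Over exons 3 and 4 and past the last exon, 3 H2A.Zac regions were gained with ratios of 4.37 to 7.03, and an H2A.Z region of 289 bp was gained with a ratio of 6.34.

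All 10 lost H2A.Z regions of the loci lay upstream of the canonical TSS, at BCL2L1 (3), BAX (2), BID (2), BCL2, BAK1 and BBC3, whereas 1 of the 5 gained ones did. Over the loci of all protein-coding genes, drawn in the same way, wholly upstream regions were 42.5% of lost and 33.0% of gained H2A.Z regions. For H2A.Zac it was 9 of 22 lost and 6 of 25 gained regions, beside 40.3% and 28.6%. The placement was noticed after the values had been seen and was not tested. Of the 10 regions, 6 belong to genes on chromosomes 19 and 20, and without these the count was 4 of 4. In loci drawn 25 kb to each side, 14 of 16 lost H2A.Z regions were upstream. Measured from the outermost annotated start of each gene it was 9 of 10, the exception being the lost region next to the TSS of BID.

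Among the 22 lost H2A.Zac regions, 6 had at least 25% of their length on a lost H2A.Z region, 8 on an unchanged one and 10 on none. Over the genome these shares are 28.6, 36.4 and 45.2% of the lost H2A.Zac regions. Among the 25 gained H2A.Zac regions, 4 were on a gained H2A.Z region, 12 on an unchanged one and 10 on none, beside 18.7, 45.9 and 43.1% over the genome. A region can count in more than 1 of these. The shares at the family genes were thus near those of the genome. No lost H2A.Zac region of the loci overlapped a gained H2A.Z region, and no gained one a lost H2A.Z region, as is the rule over the genome, where 0.0776 and 0.0725% do. The lists hold classes and no levels, so acetylation per H2A.Z nucleosome cannot be given.

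The genes differ in their surroundings. In the 5-Mb window that holds BCL2L1 on chromosome 20, 5 of 78 other changed H2A.Z regions were gained (6.41%, Wilson interval 2.77 to 14.1%), and in the window that holds BAX and BBC3 on chromosome 19 the shares with each gene's own locus left out were 5.00% (2.81 to 8.73%) and 4.11% (2.18 to 7.62%). For H2A.Zac the shares were 23.6, 23.6 and 22.7%. In the windows of the other 7 genes they ranged from 31.6 to 57.1% for H2A.Z and from 51.7 to 64.0% for H2A.Zac. The lost H2A.Z regions at BCL2L1 and BAX thus lay in windows in which nearly all other changed H2A.Z regions were lost. A difference in the number of chromosome copies between the clones and a local change in H2A.Z cannot be told apart here, because the input libraries were not analysed. BBC3 went against its surroundings, with 6 of 7 changed H2A.Zac regions gained and 2 of 3 changed H2A.Z regions gained. For H2A.Zac, BCL2L1 (2 gained, 1 lost) and BAX (2 gained, 2 lost) also held larger gained shares than their windows, on few regions. Most of the gained H2A.Zac regions of BBC3 lie near MIR3190 and MIR3191, and 1 other has a ratio of only 3.72. These differences were not tested. BCL2 differed from its window in the other direction for H2A.Zac, with 10 regions lost and 1 gained. Of the lost ones 8 lie close together in intron 2. In the rest of the window 61.9% of 21 changed H2A.Zac regions were gained (Wilson interval 40.9 to 79.2%). For H2A.Z the 1 changed region of BCL2 was lost, as were 4 of the 6 others in the window. At MCL1 all 4 changed H2A.Zac regions and the 1 changed H2A.Z region were gained. Its window had 58.4% of other changed H2A.Zac and 31.6% of other changed H2A.Z regions gained. All of these MCL1 regions lie within 1 kb of the start of another gene. Over the genome, 63.9% of changed H2A.Zac and 59.2% of changed H2A.Z regions within 1 kb of a gene start were gained.

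**Figure D5:**
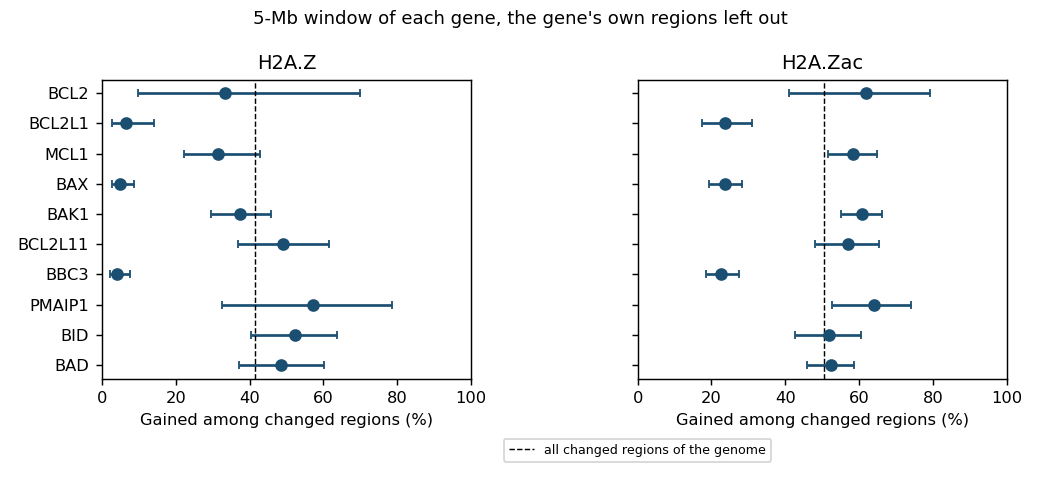
Percentage of gained regions among the changed regions in the 5-Mb window of each gene, with the gene and 10 kb to each side left out, for H2A.Z (left) and H2A.Zac (right). Points are shares, bars are Wilson 95% confidence intervals, and the dashed line is the share over the genome (41.6 and 50.4%). BCL2L1, BAX and BBC3 lie far below the line in both marks.

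The promoters ranged from near the median to rich in G and C. Within 1 kb of the canonical TSS the content ranged from 56.4% at BAK1 to 68.0% at BBC3, above the median of 56.0% over protein-coding genes in all 10. The ratio of observed to expected CpG was highest at BCL2 (0.96) and BCL2L11 (0.93) and lowest at BAK1 (0.28), with a median of 0.64 over all genes. BAX (0.56), BAD (0.56) and BCL2L1 (0.60) were below this median too. RefSeq promoters (GRCh38.p14, 250 bases before to 50 after a start) were matched for 9 of the 10 genes, with 15 entries in all. On both strands, the E-box CACGTG bound by MYC was found in 4 entries of BAX, BBC3 and BID and in 7.26% of all 35116 promoters. The E2F motif TTTNNCG was found in 5 entries (BAX, BBC3, BCL2L1, BCL2L11 and PMAIP1) and in 19.5% of promoters. The GC box GGGCGG was found in 11 entries (45.0% of promoters), CCAAT in 6 (34.6%), TATAAA in 1 of BCL2L1 (11.5%) and the p53 half-site in 1 of BAK1 (6.63%). In the 4 stretches printed above, the only match was CCAAT, read as ATTGG, in BAX. CCAAT was held by 15.7% of the central 160 bases of all H2A.Z regions. These letter matches say nothing on whether a factor is bound.

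Among 41 other apoptosis genes, a lost H2A.Zac region stood within 1 kb of the TSS of 13 and a gained one at 20 (31.7 and 48.8%), and a lost H2A.Z region at 5 and a gained one at 10 (12.2 and 24.4%). Each share is above that of all protein-coding genes. Since 40 of the 41 genes had an H2A.Zac region there, the shares can also be set beside those of all genes with one, 26.0% for lost and 57.3% for gained. An H2A.Z region was present at 37 of the 41. Among all genes with an H2A.Z region there, the H2A.Z shares are 10.5% for lost and 22.3% for gained. By list, H2A.Zac was gained and lost at 5 and 2 of 8 death receptor genes, 4 and 5 of 11 remaining relatives of BCL2, 4 and 2 of 9 genes of the apoptosome and caspases, 4 and 3 of 7 inhibitors of apoptosis and their antagonists, and 3 and 1 of 6 genes of mitochondrial channels and nucleases. In the same order, H2A.Z was gained at 4, 1, 2, 1 and 2 genes and lost at 0, 3, 0, 2 and 0. Gained and lost H2A.Z stand at 13.9 and 6.53% of all genes, so that in lists of this size 0 losses set no list apart. The highest ratio of a loss was 55.9, at HRK, a BH3-only gene, with H2A.Z lost at a ratio of 11.0. Next came DIABLO (27.3), BIRC5 (16.4) and BCL2L15 (13.2), and in each of these an H2A.Z region was lost as well. Of the 13 genes with lost H2A.Zac, 5 had lost H2A.Z in the window too, beside 1056 of 3336 among all protein-coding genes. The named genes were picked by ratio, and the share at other losses with high ratios was not taken. HRK and DIABLO lie on chromosome 12 in neighboring 5-Mb windows. There 1 of 58 and 1 of 121 other changed H2A.Z regions were gained, with H2A.Zac shares of 14.6 and 12.1%. In the windows of BIRC5 and BCL2L15 the gained shares were 44.2 and 24.6% for H2A.Z and 51.9 and 38.2% for H2A.Zac. DIABLO encodes the SMAC protein released from mitochondria, and BIRC5 encodes survivin. The highest ratios of a gain, which grow with width too, were at BMF (18.1), another BH3-only gene, CFLAR (12.6), which encodes the caspase-8 inhibitor FLIP, BCL2L13 (12.1) and FADD (11.7), the adaptor of death receptors. Of these, BMF gained H2A.Z too (ratio 4.58), and CFLAR and BCL2L13 had no H2A.Z region in the window. FADD had unchanged H2A.Z and also a lost H2A.Zac region (ratio 9.08). In the 5-Mb windows of BMF, CFLAR, BCL2L13 and FADD, 34.8, 85.7, 50 and 50% of other changed H2A.Z regions were gained. At CFLAR these were 12 of 14 regions. The H2A.Zac shares were 47.4, 62.5, 51.3 and 62.2%.

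The labels name the cells K-562 and also lymphoblast.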

How the data were processed

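The processed data were lists of regions from ChIP-seq of H2A.Z and H2A.Zac in the WT and ΔTRRAP lines. The authors aligned the reads to hg38 with Bowtie2 2.4.5, compared merged replicates with MACS2 2.2.7.1 bdgdiff at a cutoff of 3, and discarded regions with less than 25% of their bases in reproducible peaks (IDR up to 0.05). The deposited score, a log10 likelihood ratio computed by the authors, was used only to describe, rank and filter regions. Positions were written 1-based, and no chromosome name of the lists was missing from the hg38 sequence. Windows of 5 Mb start at multiples of 5 Mb, and a region belongs to the window of its midpoint. Wilson intervals came from scipy 1.17.1 in Python 3.11.15. Covered lengths were tested on 400 simulated regions and checked against bedtools 2.31.1, with 0 of 94586 regions differing. The members and gene lists were chosen with earlier results of these data known. All 10 members are named, and of the 41 other genes the 4 with the highest H2A.Zac ratio at the TSS in each direction. Since no value per replicate was used, no replicate could be left out and no test was made. The alternatives were other flanks, TSS windows and starts, ratios of at least 5 and 10, wider regions, merged regions, base pairs, and genes left out. Gene expression, signal tracks and input libraries were not analysed here. Of 6 sequence stretches 4 are printed, and a check of marker genes is not reported here.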

Additional observations from a re-analysis of the deposited data

How the results depend on the processing

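No paired analysis was possible because the lists hold 1 comparison of merged replicates and no value per replicate. Of 115 values recomputed, 87 moved by less than the limits set (inside the Wilson interval for a share, within 1.5 times for a count) and 28 moved by more. Leaving out each gene in turn gave gained shares from 25 to 41.7% for H2A.Z (33.3% with all genes) and from 47.5 to 66.7% for H2A.Zac (53.2%), the highest without BCL2, and 12 to 15 and 36 to 46 changed regions. With 2 kb to each side the H2A.Z share was 62.5% of 8 changed regions, and with 25 kb there were 24 changed H2A.Z and 72 changed H2A.Zac regions. At a ratio of at least 10 the gained shares were 0% for H2A.Z (of 1 region) and 37.5% for H2A.Zac (of 8), and the genes with a gained or lost region at the TSS fell to 0 and 0 for H2A.Z and to 1 and 1 for H2A.Zac. Among regions of at least 500 bp the H2A.Z share was 0% of 5 regions, 27 changed H2A.Zac regions were left, and the genes with a gain or loss at the TSS were 0 and 0 for H2A.Z and 3 and 2 for H2A.Zac. Without regions at the TSS of another gene 31 changed H2A.Zac regions were left, 18 lost and 13 gained (41.9%). The H2A.Zac share also fell below 50%, inside the Wilson interval, with regions of 1 class within 1 kb merged (45.7%), among regions of at least 500 bp (44.4%), without the genes on chromosomes 19 and 20 (45.5%) and without BAD, BBC3 or MCL1 (47.6, 47.5 and 48.8%). Without the genes on chromosomes 19 and 20 there were 7 changed H2A.Z regions, and 4 lost ones upstream of the TSS. The settings for the upstream count were chosen after seeing the data, as were those for the 8 genes with changed H2A.Zac and no changed H2A.Z at the TSS, which were 5 within 2 kb and 6 within 500 bp. In a TSS window of 2 kb to each side H2A.Z was gained at 2 genes and lost at 3, and at any annotated TSS it was gained at 3 and lost at 3. Within 500 bp H2A.Zac was lost at 2 genes. The cause was not tested, other than that stricter limits leave fewer and wider windows more regions. Depth is unknown here, so a class says only on which side of the authors' cutoff a region fell.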
